A study of Rattus norvegicus with 6 samples.

Results

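Cells take up, store, buffer and export metal ions through a small set of proteins, and this account follows the genes of that set in rat pancreatic islets, the clusters of endocrine cells that release insulin and glucagon. The genes were chosen by symbol in the deposited expression table: the solute carrier families Slc11 and Slc40 (iron), Slc30 (zinc export), Slc39 (zinc import), Slc31 (copper) and Slc41 (magnesium), the metallothioneins, the transferrin receptor gene Tfrc and the ferritin genes Fth1 and Ftl1, without Slc30a8. That gave 37 of the 18625 named genes in the table. RNA sequencing profiled freshly isolated islets after birth and at embryonic day 19 (E19), with 3 libraries per group. All postnatal titles say 2 weeks, but by its age label replicate 1 is of week 2, replicate 2 of week 3 and replicate 3 of week 4. The labels name no strain, genotype or treatment in either group, and they do not say whether replicates are separate animals; the p-values therefore reflect the variation among these 6 libraries, part of which could be technical. The comparison asks how late fetal and early postnatal islets differ. Values are scaled CPM, read counts relative to a library size that the authors adjusted between libraries. Log2 differences are postnatal minus fetal on the log2(scaled CPM + 1) scale, where the added 1 shrinks the differences of weakly expressed genes.

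Zinc is stored with insulin in the granules of beta cells, and Slc30 proteins move zinc out of the cytosol while Slc39 proteins move it in. Metallothioneins are short cysteine-rich proteins that bind zinc and copper, and the zinc-sensing transcription factor MTF1 induces their genes through metal response elements in their promoters. Iron enters most cells bound to transferrin through the transferrin receptor, is stored in ferritin and leaves through ferroportin; iron regulatory proteins stabilise the Tfrc transcript when iron is scarce and act on ferritin mainly at translation.

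The libraries held RNA of other cells as well as islet RNA. Beta cell markers were present in all 6 libraries, with a summed level of 38590 to 66690 scaled CPM in postnatal and 1707 to 4416 in fetal libraries. They took 2.61%, 4.38% and 6.62% of the reads in postnatal replicates 1, 2 and 3, and 0.39%, 0.48% and 0.18% in fetal ones. Markers of acinar cells, the enzyme-secreting cells of the exocrine pancreas, took 35.5%, 19.9% and 17.9% of the reads in postnatal replicates 1, 2 and 3, against 5.81%, 7.78% and 7.18% in fetal replicates 1, 2 and 3. In every library the acinar share was larger than that of the beta cell markers. Fetal replicate 2 stood apart in hepatocyte markers, at 7730 scaled CPM in sum against 292.7 and 372.8 in fetal replicates 1 and 3. Depth was 28174506 to 29515446 reads in the postnatal libraries and 26051449 to 37819935 reads in the fetal ones, so that 3 reads corresponded to 0.0726 to 0.152 scaled CPM. In such bulk samples fewer cells of a type and less RNA per cell cannot be told apart.

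The metallothionein genes Mt1, Mt2A, Mt3 and Mt4 follow each other on the chromosome in the RefSeq assembly GRCr8. The promoters of Mt1 and Mt2A are shown because both genes were lower after birth, that of Mt3 because it is their neighbour in the cluster, and that of Slc30a1 because it too is a known target of MTF1. Each line gives the 250 bases before the start site, 5′ to 3′ on the gene's strand, from RefSeq (GRCr8), with matches to the core of the metal response element in capitals. The cores searched were TGCACNC and TGCGCNC on both strands, and matches on the opposite strand appear as their reverse complement.
Mt1 promoter, chr19:10832976-10833225, minus strand: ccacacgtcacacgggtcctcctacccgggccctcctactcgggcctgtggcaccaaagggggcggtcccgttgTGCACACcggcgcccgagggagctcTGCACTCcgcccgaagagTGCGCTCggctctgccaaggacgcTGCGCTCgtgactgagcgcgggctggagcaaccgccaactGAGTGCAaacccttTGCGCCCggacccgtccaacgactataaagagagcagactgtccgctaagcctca
Mt2A promoter, chr19:10838709-10838958, minus strand: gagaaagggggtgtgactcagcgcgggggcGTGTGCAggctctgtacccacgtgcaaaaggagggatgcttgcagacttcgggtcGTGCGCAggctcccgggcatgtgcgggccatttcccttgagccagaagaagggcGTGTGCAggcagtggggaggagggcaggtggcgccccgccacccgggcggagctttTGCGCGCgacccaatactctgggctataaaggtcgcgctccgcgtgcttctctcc
Mt3 promoter, chr19:10856081-10856330, minus strand: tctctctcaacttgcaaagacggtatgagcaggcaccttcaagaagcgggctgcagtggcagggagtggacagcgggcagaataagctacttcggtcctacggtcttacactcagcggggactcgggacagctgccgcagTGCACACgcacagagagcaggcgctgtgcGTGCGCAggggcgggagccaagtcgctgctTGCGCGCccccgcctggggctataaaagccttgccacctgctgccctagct
Slc30a1 promoter, chr13:106021769-106022018, plus strand: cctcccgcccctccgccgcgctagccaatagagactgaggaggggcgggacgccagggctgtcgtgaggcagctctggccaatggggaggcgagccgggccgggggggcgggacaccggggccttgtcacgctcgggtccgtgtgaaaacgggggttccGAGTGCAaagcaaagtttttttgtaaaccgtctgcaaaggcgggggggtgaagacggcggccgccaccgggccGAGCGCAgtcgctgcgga

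The Mt1 window held 6 core matches, that of Mt2A 4, that of Mt3 3 and that of Slc30a1 2. Over all 33469 promoter windows of this length in the RefSeq table, 20.6% held at least 1 match, 4.90% at least 2, 1.17% at least 3, 0.266% at least 4 and 0.0269% at least 6. Matches that overlap on opposite strands were each counted, which did not occur in the 4 windows printed. Promoter windows were held for 28 of the 37 genes, and 14 of the 28 had a match. Slc39a7 also held 4 matches and Tfrc 3, and Slc30a4, Slc30a5, Slc39a11 and Slc39a13 held 2 each, so several matches were not limited to the metallothioneins and Slc30a1. The matches of Slc30a5 and of Slc39a11 overlapped on opposite strands, and Slc39a7 and Tfrc each held such an overlap. Among the genes without a match were Slc40a1, Slc39a8, Slc39a10, Slc39a5 and Slc11a2, which says only that these letters are not in that window. These matches describe the letters and are not evidence of binding.

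Of the 37 genes, 31 passed the filter on low values (at least 1 scaled CPM in at least 3 libraries). In a limma model fitted over all 12926 genes tested, 10 of the 31 were higher and 13 lower in postnatal islets at a Benjamini-Hochberg adjusted p under 0.05, and 8 were not called. Over all genes tested, 63.1% were called, 30.0% higher and 33.1% lower, so the 74.2% called here lies near the background and is not a result about metal genes. The postnatal and fetal values did not overlap in 25 of the 31, against 70.0% of all genes. The median log2 difference of the 31 was -0.27, and that of all genes tested was -0.03. Without fetal replicate 2 and postnatal replicate 1, the libraries with the most liver and acinar RNA, 7 of 29 genes tested were higher and 13 lower. Over all 12205 genes then tested, 3251 were higher and 3950 lower, against 3874 and 4278 with all libraries. The number higher also fell to 6 of 30 tested without fetal replicate 3, where 3246 of all genes were higher. Rescaling changed the balance: with every library set to the same sum, where acinar transcripts weigh most, 6 were higher and 16 lower while the median of all genes moved to -0.36, and 25.9% of all calls were higher, against 47.5% with the deposited scaling. After rescaling without the 20 highest genes, 14 were higher and 11 lower while the median of all genes moved to 0.20 and the share of calls that were higher to 61.2%.

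**Figure D1:**
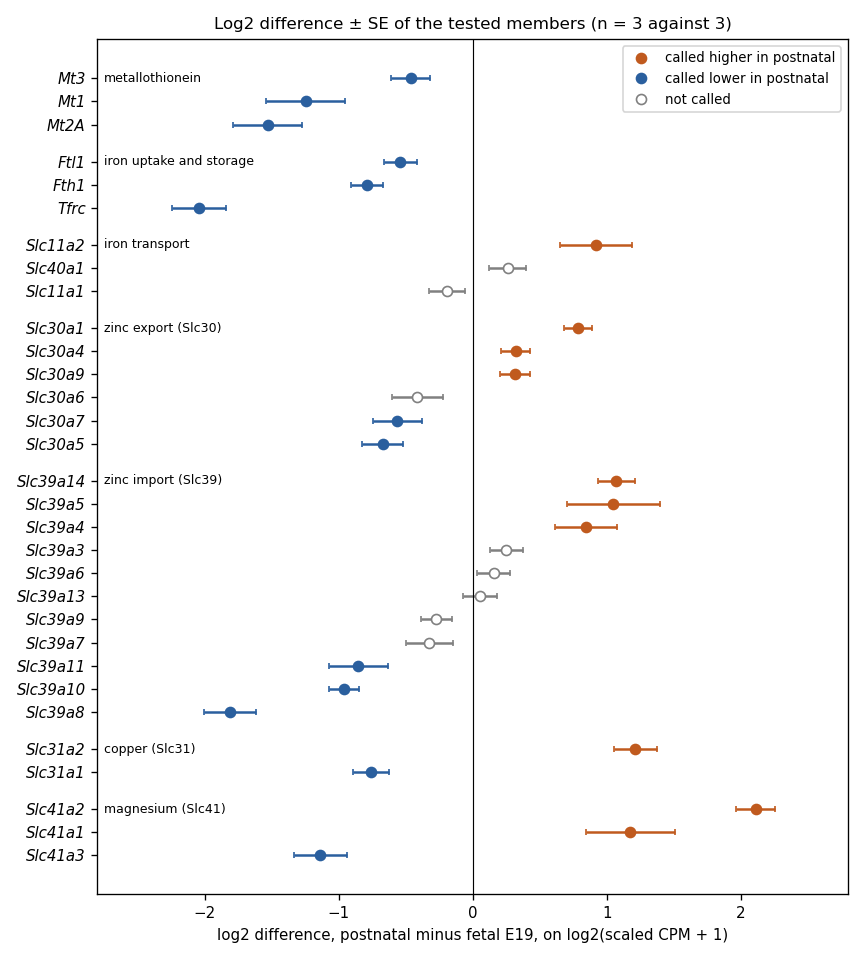
Log2 difference (postnatal minus fetal E19, x axis) of the 31 tested genes by family; points are limma estimates, bars are standard errors, 3 libraries per group, and filled points passed an adjusted p of 0.05. The 3 metallothioneins, Tfrc and both ferritin genes lie left of 0, Slc41a2 lies farthest right at 2.11, and the zinc transporter families spread to both sides.

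The metallothionein genes Mt1 and Mt2A were lower after birth. Mt2A stood at 17.6, 17.9 and 21.0 scaled CPM in postnatal replicates 1, 2 and 3, against 35.4, 71.9 and 69.3 in fetal replicates 1, 2 and 3. The groups did not overlap, and fetal replicate 1 lay between the other fetal libraries and the postnatal ones. Its log2 difference was -1.53 ± 0.26 (SE; limma, adjusted p = 0.00140). Mt1, the other metallothionein of wide tissue distribution, stood at 19.9, 12.8 and 9.53 in postnatal libraries and 22.9, 39.5 and 40.9 in fetal ones, with postnatal replicate 1 close under fetal replicate 1. Its log2 difference was -1.25 ± 0.30 (limma, adjusted p = 0.00738). Hepatocyte markers were 0.0366%, 0.845% and 0.0394% of the reads in fetal replicates 1, 2 and 3. Without fetal replicate 2 and postnatal replicate 1 the log2 differences were -1.31 for Mt2A and -1.39 for Mt1. Leaving out this pair removes the libraries richest in liver and in acinar RNA at once, so it cannot separate them. Without fetal replicate 2 alone the log2 differences were -1.355 for Mt2A and -1.128 for Mt1. Both were still called (limma, adjusted p = 0.00472 and 0.0247). The part of liver RNA in the metallothionein difference was not tested.

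Mt3, known for its expression in brain, was low throughout. It stood at 0.456, 0.413 and 0.615 in postnatal libraries (9, 12 and 18 reads) and at 1.01, 1.14 and 1.02 in fetal ones (33, 47 and 33 reads). It entered the test through its fetal values alone, so a difference was built into its selection. Its call (log2 difference -0.46 ± 0.15; limma, adjusted p = 0.0257) was lost without any 1 of the postnatal replicates 1, 2 or 3 (adjusted p = 0.0670, 0.10 and 0.0515; lowest over its alternatives 0.00309). Mt4, a metallothionein of stratified epithelium, had 0, 1 and 2 reads in postnatal libraries and none in fetal ones. Mt1m, a pseudogene in RefSeq, had no read in any library, which allows a level of up to 3 reads, or 0.152 scaled CPM in the library where a read is worth most. Mt1 and Mt2A are close in sequence, so counting could have split some of their reads. The ratio of Mt2A to Mt1 within a library was 0.883, 1.40 and 2.20 in postnatal and 1.55, 1.82 and 1.69 in fetal libraries. The groups overlapped in this ratio (two-sided exact permutation p = 0.7), and the postnatal values spanned the fetal ones.

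**Figure D2:**
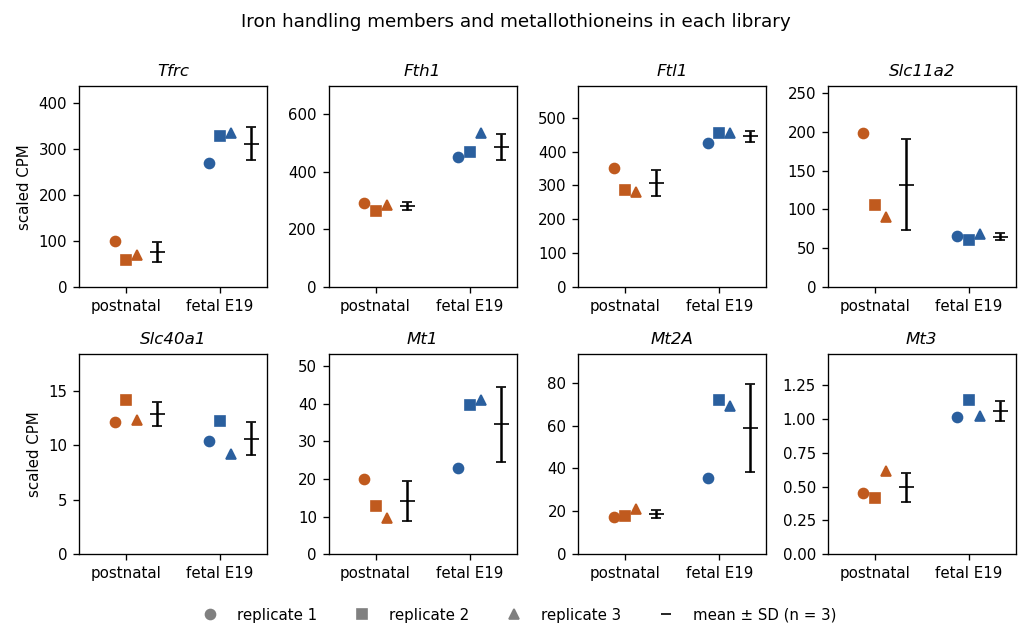
Scaled CPM (y axis, from 0) of 5 iron genes and 3 metallothioneins in each library, postnatal left and fetal E19 right; marker shapes are replicates and bars are mean ± SD with n = 3. Postnatal Tfrc values of 58.2 to 101 sit under fetal values of 269 to 335, whereas Slc11a2 is higher after birth and Slc40a1 overlaps.

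Iron uptake and storage genes were lower after birth, Tfrc by far the most among them. Tfrc, the receptor that brings in transferrin-bound iron, stood at 101, 58.2 and 69.9 scaled CPM in postnatal replicates 1, 2 and 3, against 269, 327 and 335 in fetal replicates 1, 2 and 3. The lowest fetal library was more than 2 times the highest postnatal one. The log2 difference was -2.04 ± 0.20 (limma, adjusted p = 1.33e-04), the 256th lowest of the 12926 genes tested. Fth1, encoding the ferritin heavy chain with its ferroxidase activity, stood at 291, 265 and 286 in postnatal and 452, 469.9 and 536 in fetal libraries (log2 difference -0.79 ± 0.12; limma, adjusted p = 7.79e-04). Neither ferritin gene had overlapping groups. Ftl1, encoding the ferritin light chain, stood at 353, 288 and 282 in postnatal and 425, 456 and 454 in fetal libraries (log2 difference -0.54 ± 0.13; limma, adjusted p = 0.00679). Ferritin genes have many processed pseudogenes, and reads could have been split with those copies. The calls of these 3 genes held in all 22 alternatives tried.

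The ratio of Fth1 to Tfrc reads within a library does not depend on the scaling between libraries. It was 2.88, 4.55 and 4.09 in postnatal libraries and 1.68, 1.44 and 1.60 in fetal ones, so that the groups did not overlap. The difference was 1.27 on the log2 scale, with a two-sided exact permutation p of 0.1, the smallest that 3 against 3 libraries allow.

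Markers of erythroid and proliferating cells were also mostly lower after birth, beside 33.1% lower over all genes tested. Erythroid cells, which take up iron for heme, are a textbook site of Tfrc expression. Of 11 erythroid markers in the table, 9 were tested, of which 7 were lower and none higher, and none was at 0 reads throughout. Their summed level was 20.5, 24.9 and 39.6 scaled CPM in postnatal replicates 1, 2 and 3, against 129, 345 and 65.1 in fetal replicates 1, 2 and 3. Tfrc was highest in fetal replicate 3, where the erythroid sum was the lowest of the fetal libraries. Proliferating cells also carry much transferrin receptor, and all 6 proliferation markers tested were lower. Their sum was 754, 602 and 583 in postnatal and 3272, 3216 and 4332 in fetal libraries. The part of either in the Tfrc difference was not tested.

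Of the 3 iron transporter genes, Slc11a2 was higher and Slc40a1 and Slc11a1 were not called. Slc11a2, encoding DMT1, which carries ferrous iron out of endosomes and across the gut wall, stood at 199, 106 and 89.8 scaled CPM in postnatal replicates 1, 2 and 3, against 65.8, 60.6 and 68.8 in fetal replicates 1, 2 and 3. All postnatal libraries were above all fetal ones, with postnatal replicate 1 far above the rest. The log2 difference was 0.92 ± 0.27 (limma, adjusted p = 0.0173) and 0.58 without postnatal replicate 1. Slc40a1, encoding ferroportin, the exporter of cellular iron, stood at 12.1, 14.1 and 12.3 in postnatal and 10.3, 12.2 and 9.22 in fetal libraries. These overlapped, and the difference of 0.26 ± 0.14 was not called (limma, adjusted p = 0.141). Under a common library sum it was -0.06, and after rescaling without the 20 highest genes it was 0.48 and called (adjusted p = 0.0320, within a range of 0.0320 to 0.854). Slc11a1, an ion transporter of macrophage phagosomes, stood at 2.18, 1.96 and 1.91 in postnatal and 2.39, 2.40 and 2.53 in fetal libraries and was not called (log2 difference -0.19 ± 0.14; limma, adjusted p = 0.249), although every postnatal value lay below every fetal one. Of 9 macrophage markers tested in the same libraries, 5 were higher and none lower, with a summed level of 76.4 to 154 in postnatal and 45.5 to 92.7 in fetal libraries.

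Of 6 zinc exporter genes tested, 3 were higher and 2 lower, beside 30.0% higher and 33.1% lower over all genes tested. Slc30a1, the exporter of the plasma membrane, stood at 44.0, 45.3 and 46.7 scaled CPM in postnatal and 23.7, 25.1 and 29.0 in fetal libraries. The postnatal values were nearly equal and all well above the fetal ones. Its log2 difference was 0.79 ± 0.11 (limma, adjusted p = 5.11e-04), opposite in direction to Mt1 and Mt2A. Under a common library sum the Slc30a1 difference was 0.44 and no longer called (adjusted p = 0.104, the highest of its alternatives, with 1.22e-10 the lowest). The zinc sensor gene Mtf1 averaged 7.92 ± 0.814 in postnatal and 6.16 ± 0.293 in fetal libraries (SD, n = 3 each) and was not called (log2 difference 0.31 ± 0.13; limma, adjusted p = 0.0694).

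Of the exporters of the early secretory pathway, Slc30a5 and Slc30a7 were lower and Slc30a6 was not called. Slc30a5 averaged 76.1 ± 15.6 scaled CPM in postnatal and 120.3 ± 9.37 in fetal libraries (log2 difference -0.67 ± 0.15; limma, adjusted p = 0.00577). Slc30a7, which loads zinc into Golgi enzymes, stood at 54.1, 33.5 and 34.8 in postnatal and 54.2, 61.1 and 62.7 in fetal libraries, so that postnatal replicate 1 nearly met fetal replicate 1. Its call (log2 difference -0.56 ± 0.18; limma, adjusted p = 0.0279) was lost without postnatal replicate 2 or 3, or without fetal replicate 2 or 3 (adjusted p = 0.0968, 0.0897, 0.0720 and 0.0882; range 5.55e-04 to 0.0968). Slc30a6, the partner of Slc30a5 in a heterodimer, averaged 17.6 ± 3.56 in postnatal and 23.8 ± 4.73 in fetal libraries and was not called (limma, adjusted p = 0.0954), though it was called without postnatal replicate 1 or fetal replicate 1 (adjusted p = 0.0336 and 0.0353; range 0.00876 to 0.322).

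The remaining tested exporters differed little. Slc30a4, of endosomes and secretory vesicles, averaged 72.4 ± 5.49 in postnatal and 57.8 ± 5.41 in fetal libraries (SD, n = 3 each; log2 difference 0.32). Slc30a9, linked to mitochondrial zinc, averaged 128 ± 15.7 in postnatal and 102 ± 5.98 in fetal libraries (log2 difference 0.32). Both were called (limma, adjusted p = 0.0308 and 0.0399), and both calls ended when single libraries were left out. For Slc30a4 those libraries were postnatal replicates 2 and 3 and fetal replicates 1 and 2 (adjusted p = 0.0694, 0.102, 0.0856 and 0.0674; range 0.00234 to 0.931). For Slc30a9 they were postnatal replicate 3 and fetal replicates 1, 2 and 3 (adjusted p = 0.128, 0.110, 0.0866 and 0.0688; range 0.00345 to 0.908). Under a common library sum both differences turned slightly negative, at -0.02 and -0.03.

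The exporters Slc30a3 and Slc30a10 did not pass the filter on low values. Slc30a3, the zinc transporter of synaptic vesicles, had 8, 11 and 7 reads in postnatal and 2, 2 and 2 in fetal libraries, so that the groups did not overlap. With the filter at 0.1, which it passed through its postnatal values alone, it was called higher (log2 difference 0.34; limma, adjusted p = 0.0135). Slc30a10, a manganese exporter of liver and brain, had 4, 6 and 3 reads in postnatal libraries, against 5, 98 and 3 in fetal replicates 1, 2 and 3. The 98 reads (2.37 scaled CPM) fell in the library in which hepatocyte markers summed to 7730 scaled CPM, where the other 5 libraries had 242 to 373. The part of liver RNA in that value was not tested.

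**Figure D3:**
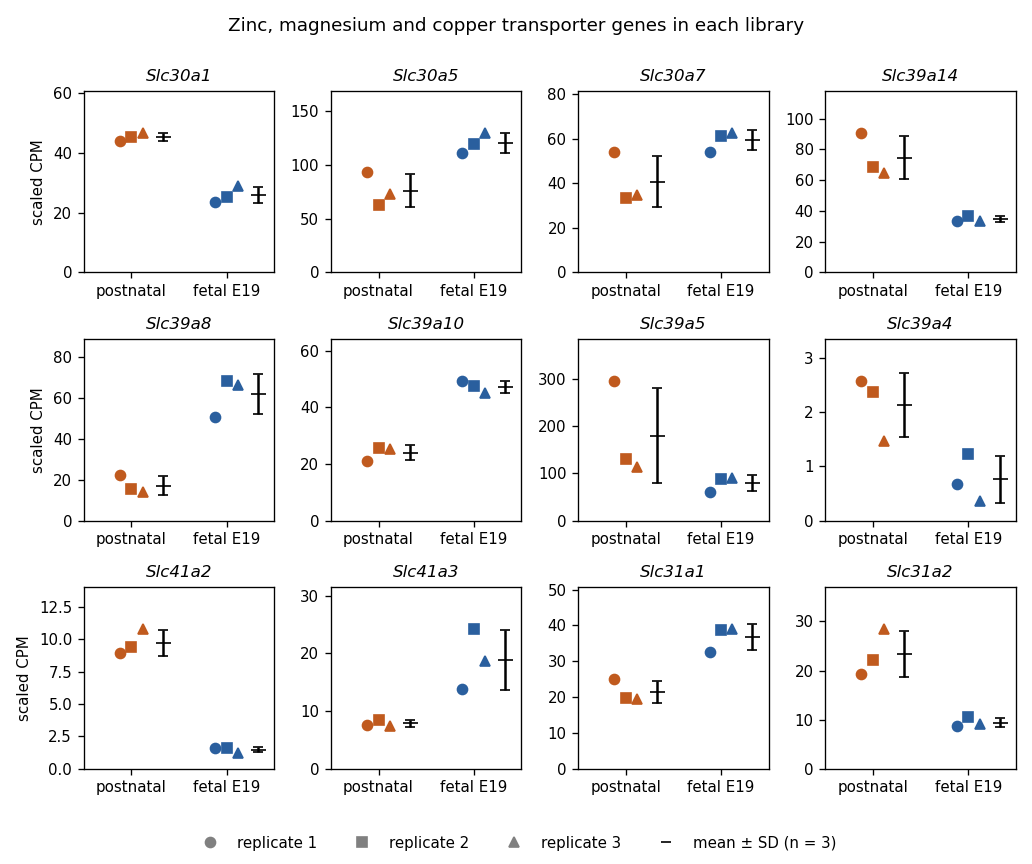
Scaled CPM (y axis, from 0) of 12 zinc, magnesium and copper transporter genes in each library, postnatal left and fetal E19 right; marker shapes are replicates and bars are mean ± SD with n = 3. Slc39a8 and Slc39a10 are lower and Slc39a14 higher after birth, and Slc31a1 and Slc31a2 differ in opposite directions.

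Of 11 zinc importer genes tested, 3 were higher, 3 lower and 5 not called. That is 27.3% in each direction, near the 30.0% higher and 33.1% lower over all genes tested. Slc39a8, encoding ZIP8, which carries manganese as well as zinc, fell most. It stood at 22.3, 15.3 and 13.8 scaled CPM in postnatal and 50.7, 68.4 and 66.6 in fetal libraries, with a clear gap between groups. Its log2 difference was -1.81 ± 0.19 (limma, adjusted p = 1.97e-04). Its close relative Slc39a14, encoding ZIP14, which carries zinc, manganese and iron, stood at 90.8, 68.5 and 64.6 in postnatal and 33.6, 36.7 and 33.6 in fetal libraries. All postnatal values exceeded the fetal ones, and the log2 difference was 1.07 ± 0.14 (limma, adjusted p = 4.31e-04). For these transporter genes the direction was opposite and both calls held in all 22 alternatives.

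Slc39a10, an importer of the plasma membrane, stood at 20.9, 25.5 and 25.4 in postnatal and 49.3, 47.5 and 45.0 in fetal libraries (log2 difference -0.96 ± 0.11; limma, adjusted p = 2.75e-04). Every postnatal value lay far below every fetal one. Slc39a11, found on intracellular membranes, averaged 12.4 ± 4.64 in postnatal and 22.4 ± 1.39 in fetal libraries (log2 difference -0.85 ± 0.22; limma, adjusted p = 0.0109). Slc39a4, the importer of dietary zinc in the gut, was low, at 2.58, 2.37 and 1.47 in postnatal and 0.675, 1.23 and 0.370 in fetal libraries. It passed the filter through its 3 postnatal values and 1 fetal value. Its call (log2 difference 0.85 ± 0.23; limma, adjusted p = 0.0144) was lost without postnatal replicate 2 or fetal replicate 3 (adjusted p = 0.0536 and 0.0559; range 0.00669 to 0.0606).

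Slc39a5, an importer of the basolateral membrane known from mouse intestine and pancreatic acinar cells, stood at 297, 130.3 and 113 scaled CPM in postnatal replicates 1, 2 and 3, against 60.7, 87.4 and 91.0 in fetal replicates 1, 2 and 3. Postnatal replicate 1 was more than 2 times each of the other postnatal libraries. The log2 difference was 1.05 ± 0.35 (limma, adjusted p = 0.0301) and 0.62 without postnatal replicate 1. The call was lost without fetal replicate 1 or fetal replicate 3 (adjusted p = 0.102 and 0.0556; range 9.70e-04 to 0.102).

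The 5 importers not called differed by at most 0.32 on the log2 scale in either direction. Slc39a7, which releases zinc from the endoplasmic reticulum, averaged 149 ± 35.0 in postnatal and 184 ± 23.9 in fetal libraries (SD, n = 3 each; limma, adjusted p = 0.146). Without postnatal replicate 1 it was called lower (log2 difference -0.51; adjusted p = 0.0102, range 0.00402 to 0.626). Slc39a9 likewise passed without that library (-0.36; adjusted p = 0.0203, range 0.0149 to 0.735), against -0.27 with it. Slc39a3 averaged 18.1 ± 0.483 in postnatal and 15.1 ± 1.94 in fetal libraries (SD, n = 3 each; log2 difference 0.25), without overlap of the groups. Slc39a6 averaged 18.9 ± 2.47 in postnatal and 16.8 ± 0.218 in fetal libraries, and Slc39a13, a zinc carrier known for its role in connective tissue, 25.9 ± 2.56 in postnatal and 24.9 ± 2.67 in fetal libraries. The signs of these 3 genes turned under a common library sum (-0.08, -0.17 and -0.28), and that of Slc39a13 also without postnatal replicate 1 or fetal replicate 1 (-0.02 and -0.03). Slc39a2 had 2 to 3 reads in postnatal and 4 to 13 in fetal libraries, and Slc39a12 had a single read in each of postnatal replicates 1 and 3, so neither passed the filter.

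The copper transporter genes differed in opposite directions. Slc31a1, encoding CTR1, the high-affinity copper importer, stood at 25.0, 19.7 and 19.4 scaled CPM in postnatal and 32.5, 38.8 and 39.0 in fetal libraries (log2 difference -0.76 ± 0.13; limma, adjusted p = 0.00181). Slc31a2, encoding the related CTR2 of endosomes and lysosomes, stood at 19.4, 22.2 and 28.4 in postnatal and 8.66, 10.5 and 9.06 in fetal libraries. The lowest postnatal value was well above the highest fetal one, and the log2 difference was 1.22 ± 0.16 (limma, adjusted p = 4.75e-04). Both calls held in all 22 alternatives.

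The magnesium transporter genes gave the largest rise of the 31. Slc41a2 stood at 8.91, 9.43 and 10.8 scaled CPM in postnatal and 1.57, 1.62 and 1.23 in fetal libraries, with little spread within either group on this scale. Slc41a2 had 176, 274 and 316 reads in postnatal replicates 1, 2 and 3. Its log2 difference was 2.11 ± 0.15 (limma, adjusted p = 3.73e-05), the 442nd highest of the 12926 genes tested. On the recovered reads edgeR gave a log2 difference of 2.76. Slc41a3, linked to magnesium efflux from mitochondria, moved the other way, at 7.59, 8.53 and 7.41 in postnatal and 13.8, 24.2 and 18.6 in fetal libraries (log2 difference -1.14 ± 0.20; limma, adjusted p = 0.00164). The groups did not overlap, and the fetal values were the more scattered. Slc41a1, a magnesium carrier of the plasma membrane, stood at 273, 139 and 97.0 in postnatal and 76.1, 62.6 and 65.0 in fetal libraries. Postnatal replicate 1 stood far above the rest, and the groups did not overlap. Its log2 difference was 1.18 ± 0.33 (limma, adjusted p = 0.0152), 0.77 without postnatal replicate 1, and the call was lost without fetal replicate 3 (adjusted p = 0.0515, the highest of its alternatives, with 1.13e-04 the lowest).

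**Figure D4:**
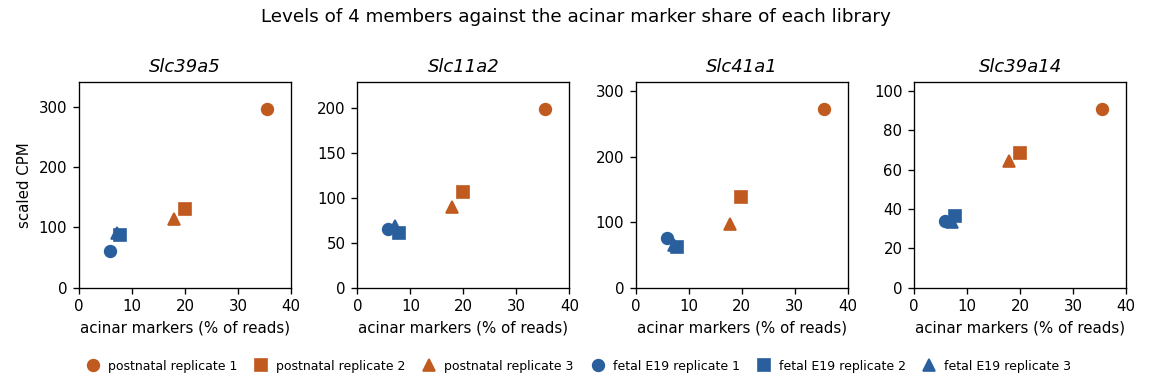
Scaled CPM (y axis, from 0) of 4 genes against the share of reads from acinar markers (x axis, percent) in each of the 6 libraries, postnatal in orange and fetal E19 in blue. On this scale postnatal replicate 1, with 35.5% acinar reads and the youngest postnatal age label, is highest for each gene. The fetal libraries lie together below 8% acinar reads.

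Several of the genes that were higher after birth were highest in the library richest in acinar RNA. Among the postnatal libraries the acinar share fell as the labelled age rose from week 2 to week 4. Acinar RNA and age therefore cannot be told apart there. In scaled CPM, postnatal replicate 1, with an acinar share of 35.5%, held the highest values of Slc39a5, Slc11a2, Slc41a1 and Slc39a14. Postnatal replicate 3, with 17.9%, held the lowest postnatal ones. Slc39a5, Slc11a2 and Slc41a1 were highest in postnatal replicate 1 in reads as well. The order of Slc39a14 came with the scaling, which adjusted library size by 0.677, 1.03 and 0.992 in postnatal replicates 1, 2 and 3. At similar depth its reads there were 1794, 1990 and 1892. Of 15 acinar markers in the table all were tested, of which 11 were higher and 1 lower. Over all genes tested, 30.0% were higher and 33.1% lower. The lower marker was the transcription factor gene Ptf1a, which averaged 28.6 in postnatal and 257 in fetal libraries. Cpa1, Ctrb1 and Bhlha15 were not called (limma, adjusted p = 0.637, 0.496 and 0.399). The summed level of the 15 markers was 180000 to 524000 scaled CPM in postnatal and 46490 to 71190 in fetal libraries, and no acinar marker was at 0 reads. Slc30a1, Slc31a2 and Slc41a2, which were also higher after birth, had their lowest postnatal value in postnatal replicate 1. Mt1 (19.9, 12.8 and 9.53) and Slc39a8 (22.3, 15.3 and 13.8), which were lower after birth, also fell from postnatal replicate 1 to 3 in scaled CPM. In these libraries Mt1 had 394, 372 and 279 reads and Slc39a8 had 440, 444 and 405. The fall of Slc39a8 from postnatal replicate 1 to 2 therefore came with the scaling. The part of acinar RNA in any of these differences was not tested. Without postnatal replicate 1 the calls of Slc39a5, Slc11a2 and Slc41a1 held at smaller log2 differences of 0.62, 0.58 and 0.77.

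Genes outside these families that handle the same metals were followed as lists, whose counts stand against 30.0% higher and 33.1% lower over all 12926 genes tested and a median of -0.03. Of 19 tested genes of iron sensing, oxidation and systemic control, 8 were higher and 2 lower, with a median log2 difference of 0.13. Among the lower ones, Steap1 passed the filter through its fetal values alone, so a difference was built into its selection. Steap4, a metalloreductase, averaged 23.2 ± 11.8 in postnatal and 0.524 ± 0.617 in fetal libraries (SD, n = 3 each; 3.92 ± 0.43), and passed the filter through its 3 postnatal values and 1 fetal value. Cp, encoding the ferroxidase ceruloplasmin, averaged 109 ± 21.9 in postnatal and 17.1 ± 9.90 in fetal libraries (2.72 ± 0.34). Bmp6, a ligand that induces hepcidin in the liver, averaged 16.0 ± 4.57 in postnatal and 2.07 ± 0.592 in fetal libraries (2.45 ± 0.24). The iron regulatory protein genes were close to level: Aco1 was not called (-0.16 ± 0.09; limma, adjusted p = 0.153) and Ireb2 was lower by a small amount (-0.28 ± 0.08; limma, adjusted p = 0.0184). Heph, encoding the ferroxidase hephaestin, and the ferrireductase gene Steap3 were not called (limma, adjusted p = 0.397 and 0.702).

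Of 24 heme and iron-sulfur cluster genes tested, 13 were lower and 1 higher, with a median of -0.53, against 33.1% lower and 30.0% higher over all genes. Slc25a37, the mitochondrial iron importer mitoferrin 1 of erythroid cells, averaged 6.24 ± 0.395 in postnatal and 21.1 ± 12.2 in fetal libraries (-1.46 ± 0.36), and Alas2, the erythroid heme synthesis enzyme, 9.35 ± 1.32 in postnatal and 27.0 ± 16.0 in fetal libraries (-1.29 ± 0.36). These moved with the erythroid markers, of which Alas2 is a member. The gene that was higher was Flvcr2, a membrane transporter once proposed to carry heme (1.35 ± 0.21). Hmox1, the inducible heme oxygenase, was not called (limma, adjusted p = 0.392).

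Of 14 copper handling genes tested, 4 were higher and 6 lower, with a median of -0.23. Over all genes 30.0% were higher and 33.1% lower. Among the higher copper genes, Dbh passed the filter through its postnatal values alone, so a difference was built into its selection. Atp7b, a copper-transporting ATPase of the secretory pathway, averaged 32.5 ± 16.9 in postnatal and 124 ± 12.9 in fetal libraries (-2.01 ± 0.31; limma, adjusted p = 9.78e-04). Lox and Loxl1, copper-dependent enzymes of the extracellular matrix, were higher (1.94 ± 0.21 and 1.83 ± 0.19), beside mesenchymal markers of which 7 of 7 tested were higher, with a summed level of 6637 to 11680 in postnatal and 1479 to 2227 in fetal libraries.

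Among zinc-responsive factors and zinc enzymes, 5 were higher and 3 lower of 12 tested, with a median of 0.25, beside 30.0% higher and 33.1% lower over all genes. The largest differences were those of Cpe, the zinc carboxypeptidase of hormone granules (2.59 ± 0.26), Ache, encoding acetylcholinesterase (1.39 ± 0.21), and Ece1, a zinc endopeptidase (1.27 ± 0.18). Ache passed the filter on low values through its postnatal libraries alone, so a difference was built into its selection, as for Cnnm1 among the magnesium genes. Among magnesium, manganese and other divalent cation genes, 9 were higher and 7 lower of 18 tested, with a median of 0.35, beside the same shares over all genes. Cnnm1, of a family linked to magnesium transport, averaged 6.59 ± 1.27 in postnatal and 0.286 ± 0.185 in fetal libraries (2.56 ± 0.19), and passed the filter on low values through its postnatal libraries alone. Cnnm2, of the same family, averaged 29.4 ± 1.92 in postnatal and 8.09 ± 1.10 in fetal libraries (1.75 ± 0.13). Nipal2, of a family of magnesium transporters, was higher by 1.23 ± 0.14. In the same libraries 8 of 9 beta cell markers tested were higher and none lower, with a median of 3.33, and their part in the values of Cpe and the other genes was not tested.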

How the data were processed

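Total RNA of freshly isolated islets was sequenced after depletion of ribosomal RNA with a stranded kit, per the labels' protocols. Per the submitters' processing notes the tools included TopHat2 2.0.8b and edgeR 3.30.3, in roles not stated. The build, annotation, counter and strand setting are not given here, and reads of overlapping or antisense genes may be mixed. The authors deposited a normalized expression signal per gene and library. It equals a whole number of reads times 1 constant per library for 100% of values (tolerance 0.001 reads), and is called scaled CPM. A row without a gene name held at most 9 reads per library and was left out of the tests.

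Libraries were grouped by title. The log2(value + 1) values went into a two-sided limma test (version 3.58.1, R 4.3.3) with group as the single term and an intensity trend, over genes with at least 1 in at least 3 libraries, and p-values were adjusted by Benjamini-Hochberg over all 12926 genes and called under 0.05; the procedure was tested on simulated data. Ratios were compared by exact permutation. Per-library values are given for the metallothioneins, Tfrc, Fth1, Ftl1, Slc40a1 and Slc11a2 and for the 5 largest called rises and falls, with others added after their values were seen; of each list, the 3 largest called differences and fixed genes are named. Members, lists and tests were chosen with earlier results of these data known. The 22 alternatives were 3 pseudocounts, 3 filters, 4 scalings, 6 single libraries and a pair left out, terms for replicate number or for labelled week, a robust trend, and count models on the recovered reads (DESeq2 1.42.0, edgeR 4.0.16). Symbols of all 37 genes matched RefSeq (GRCr8), used for names and promoter sequences. The family genes Slc39a1 and Slc30a2 are not analysed here.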

Additional observations from a re-analysis of the deposited data

How the results depend on the processing

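Of the 23 calls, 15 held in every alternative that tested the gene (up to 22): among them were Tfrc, Fth1, Ftl1, Mt1, Mt2A, Slc39a8, Slc39a10, Slc39a14, Slc31a1, Slc31a2 and Slc41a2. Over 672 gene values under alternatives, 618 kept direction and call, 32 lost the call, 14 gained one and 8 changed sign. The changed signs were those of Slc30a4 (-0.024), Slc30a9 (-0.032), Slc39a3 (-0.078), Slc39a6 (-0.174), Slc39a13 (-0.284) and Slc40a1 (-0.061) with every library set to the same sum, and of Slc39a13 without postnatal replicate 1 (-0.020) or fetal replicate 1 (-0.029; 0.117 without fetal replicate 2). With that sum 6 members and 1780 of all genes were called higher. With each single library left out, members called higher were 6 to 10 and lower 11 to 15, and all genes higher 2863 to 3600 and lower 3518 to 4454. The log2 difference in the Mt2A to Mt1 ratio was -0.27; it ranged over single libraries left out from -0.598 without postnatal replicate 3 to 0.062 without postnatal replicate 1, and was 0.119 without postnatal replicate 1 and fetal replicate 2. With edgeR and with DESeq2 on recovered reads 10 members were higher and 13 lower. Of all genes, 4060 were higher and 4068 lower with edgeR, and 4206 and 4160 with DESeq2.

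Same-numbered libraries deviated from their group means with correlations of -0.21, 0.10 and -0.25 for numbers 1, 2 and 3, so the numbers were not taken as pairs. With the replicate block, 8 members were higher and 11 lower, and 3563 and 3863 of all genes. The calls of Mt3, Slc30a7, Slc30a9 and Slc39a5 were not made with the block. With the low-value filter at 0.1, Slc30a3 was also called higher (0.34; adjusted p = 0.0135), while Slc30a10 and Slc39a2 were not called. Without a filter Slc30a3 was called (adjusted p = 0.00313), and Mt4, Slc30a10, Slc39a2 and Slc39a12 were not; Mt4 and Slc39a12 rest on 0 to 2 reads per library.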
